A study of Mus musculus with 31 samples.

Results

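The 7 genes described here encode receptors for neurotrophins and for ligands of the GDNF family: Ntrk2, Ntrk3, Ngfr, Ret, Gfra1, Gfra2 and Gfra3. They were chosen by name from receptor families known in sensory neurons, with earlier results of these data known. All 7 were found among the 55536 gene identifiers of the deposited mouse count tables. Their transcripts were measured in sensory neurons of the lumbar dorsal root ganglion by TRAP-seq, in which ribosomes that carry a tagged protein are pulled down and the RNA bound to them is sequenced.

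There were 31 libraries in 8 groups. The Cre groups were Nav1.8-Cre;L10a-eGFP-fl/fl mice, in which Cre driven by the sodium channel gene Nav1.8 (Scn10a) switches on a GFP-tagged ribosomal protein L10a. The negative controls were L10a-eGFP-fl/fl mice, which carry the same floxed tag allele without Cre, so that RNA in their pull-downs came without tagged ribosomes being switched on. Each genotype was sampled in 3 compartments: the central axon (lumbar dorsal root with spinal cord, batch 1), the peripheral axon (sciatic nerve, batch 2) and the soma (lumbar dorsal root ganglia, in batch 1 and again in batch 2). Every group held 4 libraries except the peripheral axon control, which held 3. Age and sex are not given in the sources used here. The titles call the replicates biological, and whether animals were pooled is likewise not given. Nav1.8 is carried by most nociceptors and some other sensory neurons, so the Cre groups model a broad set of neurons and not a single type.

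Trk receptors are receptor tyrosine kinases. TrkB, encoded by Ntrk2, binds BDNF and neurotrophin-4, and TrkC, encoded by Ntrk3, binds neurotrophin-3. p75, encoded by Ngfr, is a member of the tumour necrosis factor receptor family that binds all neurotrophins. Ret is the kinase shared by the GDNF family ligands and binds them through membrane-anchored co-receptors: GFRα1 prefers GDNF, GFRα2 neurturin and GFRα3 artemin. In adult ganglia TrkC is known from large proprioceptors, TrkB from mechanoreceptors, and Ret with GFRα2 or GFRα3 from classes of nociceptor.

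Both Trk genes make a kinase-bearing form and truncated forms that lack the kinase, and a count per gene adds all forms together. The forms part at a splice site, shown here because a difference in Ntrk2 or Ntrk3 below cannot be assigned to a kinase. Each sequence is from the GENCODE M21 annotation of GRCm38, read 5′ to 3′ on the coding strand. Lower case marks the last 12 coding bases that both forms share, and capitals mark the first 38 coding bases of that form alone.
Ntrk2-201, kinase-bearing: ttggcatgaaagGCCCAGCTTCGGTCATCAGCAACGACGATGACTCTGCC
Ntrk2-202, truncated: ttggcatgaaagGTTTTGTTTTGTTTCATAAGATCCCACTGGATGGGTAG
Ntrk3-201, kinase-bearing: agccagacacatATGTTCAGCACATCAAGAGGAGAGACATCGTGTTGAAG
Ntrk3-202, truncated: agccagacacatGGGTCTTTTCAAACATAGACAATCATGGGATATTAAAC

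The Ntrk2 forms share 1393 coding bases. The capitals lie at chr13:58985802-58985839 for the kinase-bearing form and at chr13:58932023-58932060 for the truncated form, both on the plus strand, and the truncated form ends with its stop codon at the last capital. Ntrk3-201 and Ntrk3-202 share 1585 coding bases, and their capitals lie at chr7:78260377-78260414 and chr7:78304389-78304426 on the minus strand. The annotation holds 10 transcripts of Ntrk2 and 20 of Ntrk3, against 1 each for Ngfr and Gfra3.

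In GRCm38 Ntrk2 (ENSMUSG00000055254) lies at chr13:58806569-59133970 on the plus strand and Ntrk3 (ENSMUSG00000059146) at chr7:78175959-78738012 on the minus strand. Ngfr (ENSMUSG00000000120) lies at chr11:95568818-95587735 and Ret (ENSMUSG00000030110) at chr6:118151745-118197718, both on the minus strand. Gfra1 (ENSMUSG00000025089) is at chr19:58235604-58455909 on the minus strand, Gfra2 (ENSMUSG00000022103) at chr14:70890120-70979838 on the plus strand and Gfra3 (ENSMUSG00000024366) on the minus strand of chromosome 18. Counts are the reads per Ensembl gene that the authors deposited, and which exons were counted is not given in the sources used here.

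Library totals ran from 3.6 M to 19.64 M counts, and levels are given as CPM, the count of a gene scaled to a library total of 1 M. Scn10a itself was read at 174 ± 168 CPM in central axon Cre libraries (SD, n = 4) against 8.0 ± 14.6 in their controls (n = 4), but at 364 ± 52.3 against 370 ± 152 in the batch 2 somas (n = 4 each). Rpl10a, the gene of the tagged protein, was at 206 ± 54.7 CPM in peripheral axon Cre libraries and 141 ± 19.0 in controls (n = 3). In the central axon it was at 49.9 ± 12.3 CPM in Cre and 58.1 ± 36.9 in control libraries, and in the batch 2 soma at 129 ± 17.3 and 159 ± 32.8 (n = 4 each). The batch 1 soma gave 34.8 ± 14.1 and 15.5 ± 29.8. Rpl10a was thus no higher on average in Cre than in control libraries of the central axon and the batch 2 soma, and its reads do not separate tagged from untagged copies. Markers of the ganglion's own nociceptors were present in all compartments, and 2 of 9, Trpv1 and Scn11a, were at 0 in all central axon controls. Several libraries stood apart. Soma control replicate 5 of batch 2, with 18.08 M counts, had a mean Spearman correlation over 11769 genes of 0.947 with the Cre somas, where the other controls of that batch had 0.625 to 0.761. In 14 of 15 control libraries this correlation was higher with the Cre libraries than with the other controls of the group. Peripheral axon control replicate 1 had 0.812 with the Cre libraries against 0.741 and 0.59 for the other controls. Central axon Cre replicate 1 held 6720 CPM of summed nociceptor markers, against 1630 to 3230 in the other 3 and 6800 to 10300 in the batch 1 Cre somas. Soma control replicate 3 of batch 1 received a scaling factor of 0.0547 in the trimmed-mean (TMM) scaling, where the other 7 libraries of that fit lay between 1.303 and 1.783. A pair of the batch 1 soma control columns carry the same name, and they are called replicates a and b here.

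The control libraries lost single receptors that the Cre libraries kept. In the 15 control libraries 11 of 105 receptor values were at or under 3 counts and 9 were exactly 0, whereas none of 112 values in the 16 Cre libraries was, the lowest being 38 counts. The share of control values at or under 3 counts, 10.5%, is close to the 10.3% found over 5063 genes of like abundance, where it was 0.22% in Cre libraries. The receptors' share in controls was thus near that background. At 0 counts the level may have reached 0.242 to 0.833 CPM, which is 3 counts in the control libraries that held a 0 and covers counting error only.

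**Figure D1:**
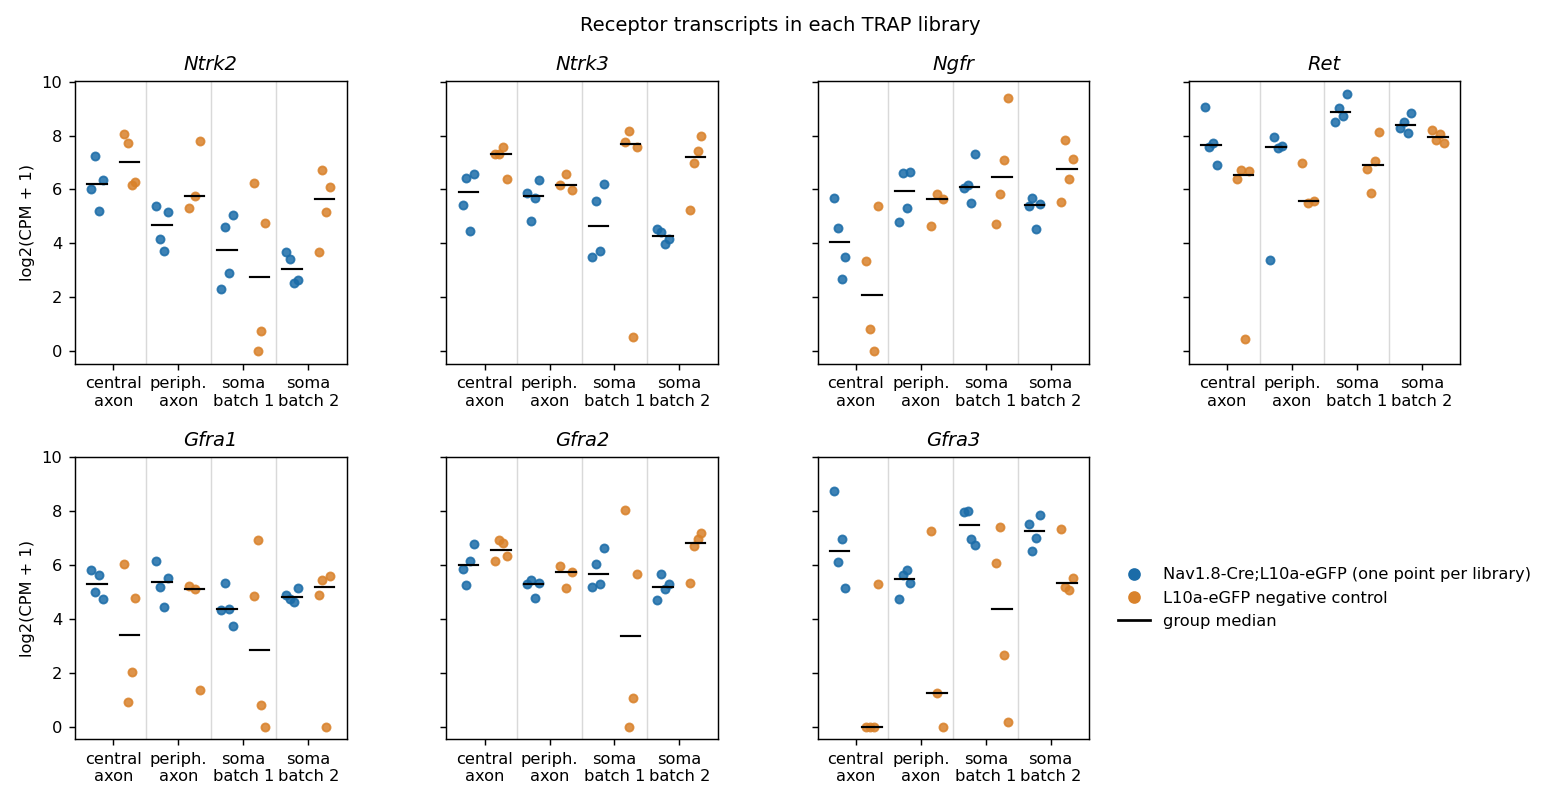
Level of each receptor in every library, as log2(CPM + 1) on the vertical axis, by compartment and batch on the horizontal axis, with Cre libraries in blue, controls in orange and a line at each group's median. By group mean CPM, Ntrk2 and Ntrk3 are lowest in the batch 2 Cre somas and Ret is highest in the Cre somas. Each receptor has at least 1 control library at or near 0.

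Compared per kilobase of exon, Gfra3 and Ret were the most abundant of the 7 in the Cre somas and the Trk genes the least. In batch 2 Cre somas Gfra3 was at 78.9 ± 30.2 CPM per kb, Ret at 51.7 ± 11.4, Ngfr at 11.3 ± 3.47, Gfra2 at 10.4 ± 3.03, Gfra1 at 5.12 ± 0.869, Ntrk3 at 0.609 ± 0.108 and Ntrk2 at 0.408 ± 0.18 (SD, n = 4). The order in batch 1 Cre somas was the same, with 91.9 ± 39.9 for Gfra3 and 75.9 ± 25.2 for Ret. The steps from Ret to Ngfr and from Gfra2 to Gfra1 were larger than the 2 SDs added in both batches, and that from Gfra1 to Ntrk3 in batch 2. The other neighbours did not differ beyond their spread. The exon length used is the union over all transcripts, 30.17 kb for Ntrk3 and 19.29 kb for Ntrk2 but 2.0 kb for Gfra3, so long alternative ends lower the per-length values of the Trk genes.

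The batch 2 soma controls had a flatter profile, led by Ret at 36.9 ± 5.58 CPM per kb, Ngfr at 35.8 ± 23.3, Gfra3 at 34.3 ± 31.1 and Gfra2 at 29.0 ± 13.0. Central axon Cre libraries again began with Gfra3 at 82.4 ± 91.8 and Ret at 38.7 ± 26.9, and ended with Ntrk2 at 4.3 ± 2.56 and Ntrk3 at 2.02 ± 1.17. In peripheral axon Cre libraries Ret at 23.3 ± 15.1, Gfra3 at 21.2 ± 6.5 and Ngfr at 18.8 ± 10.8 lay together at the top. Of the steps between neighbouring groups in the order of a receptor's mean CPM, 1 was larger than the 2 groups' SDs added: Gfra3, from 42.5 ± 13.0 in peripheral axon Cre to 9.67 ± 19.3 in central axon control.

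The first question was whether the receptors were enriched or depleted in Cre pull-downs against controls of the same compartment and batch. By edgeR's quasi-likelihood test with Benjamini-Hochberg adjustment over all genes, none of the 7 passed an adjusted p of 0.05 in any compartment. In the central axon 0.0141% of 14189 genes passed and 1 receptor had an unadjusted p under 0.05. For the peripheral axon these were 0.0% of 13970 genes and 1 receptor, and for the batch 1 soma 4.42% of 11667 genes and 1 receptor. In the batch 2 soma 0.0% of 15280 genes passed, with 6 of 7 receptors but also 16.4% of all genes at an unadjusted p under 0.05. DESeq2 called 0 receptors in the first 3 and 2 in the batch 2 soma, Ntrk2 and Ntrk3. Without soma control replicate 5 of batch 2, edgeR called 6 receptors there, all but Gfra1, among 1826 genes. It was picked out in these same data as the control most like the Cre somas. Leaving it out is therefore no separate evidence, and this holds for each value without replicate 5 below. Without control replicate 7 edgeR called 2, Ntrk2 and Ntrk3, and without any other single library 0. The median log2 fold change over the 7 receptors was 0.80, -0.13, -1.11 and -1.20 in these 4 comparisons, against 0.11, 0.07, -0.45 and 0.06 over all genes.

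**Figure D2:**
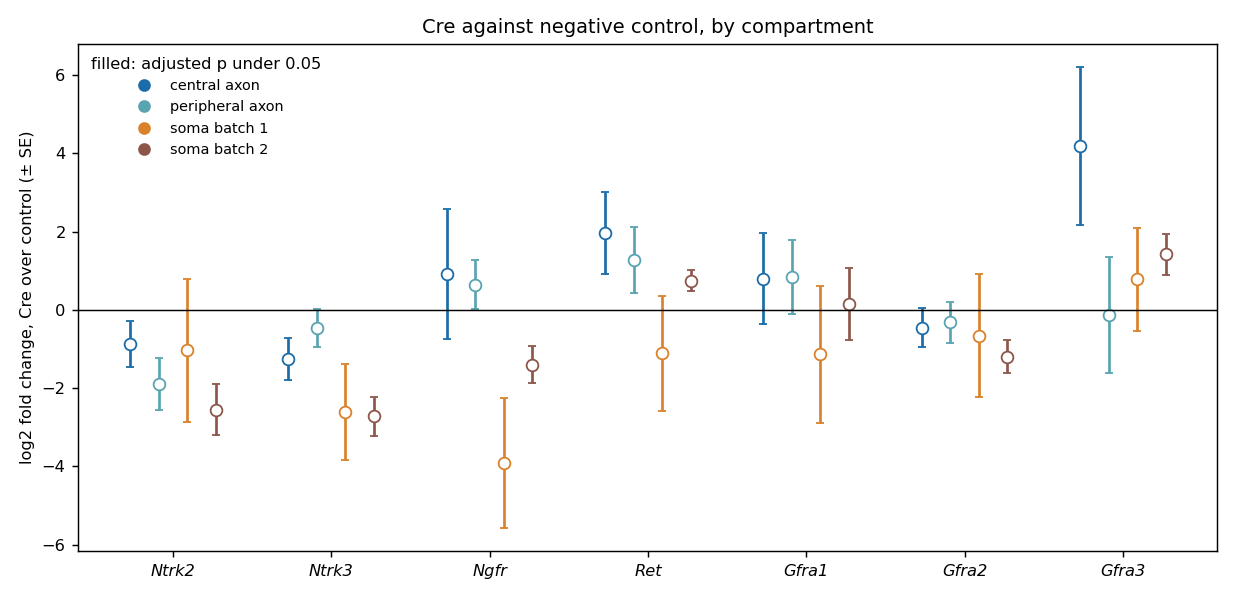
Fitted log2 fold change of each receptor in Cre over control libraries (vertical axis, bars are ± SE), by compartment; a filled point would mark an adjusted p under 0.05 and all points are open. In the batch 2 soma Ntrk3 and Ntrk2 lie lowest, at -2.72 and -2.55.

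Ntrk3 was lower in Cre than in control libraries of the batch 2 soma in every library. The 4 Cre libraries read 21.9, 20.1, 14.6 and 16.9 CPM, and the 4 controls 36.7, 125, 171 and 252. The groups did not overlap, and the lowest control was replicate 5. The fitted log2 fold change was -2.72 ± 0.49 (SE), with an adjusted p of 0.0572 that fell to 0.00389 without that replicate. Leaving out any other library gave adjusted p values from 0.03, without control replicate 7, to 0.277, without Cre replicate 8. Markers of large-diameter sensory neurons moved with Ntrk3: the 7 of 7 matched markers summed to between 394 and 535 CPM in the Cre somas, to 593 in control replicate 5 and to between 1890 and 2600 in the other 3 controls. No one of these 7 markers passed the test, their median log2 fold change was -1.49, and their part in the Ntrk3 difference was not tested. In bulk libraries such as these, fewer cells of a type and less RNA per cell cannot be told apart.

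In the batch 1 soma Ntrk3 was read at 10.2, 46.8, 12.2 and 72.6 CPM in Cre libraries and at 215, 288, 0.431 and 192 in controls. The controls were higher except replicate 3, which held only 4 Ntrk3 counts. The fit gave -2.61 ± 1.22 with an adjusted p of 0.335. The central axon gave 41.4, 85.6, 21 and 95.2 CPM in Cre libraries against 158, 158, 188 and 81.8 in controls. There 3 of 4 controls lay above every Cre library, with a log2 fold change of -1.25 ± 0.54 (adjusted p = 0.99). Peripheral axon Cre libraries held 57.6, 27.2, 49.8 and 79.8 CPM and controls 70.6, 93.6 and 61.9. These groups overlapped, at -0.46 ± 0.49 (adjusted p = 1.0).

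Ntrk2 was lower in Cre libraries of the batch 2 soma too. Its 4 Cre libraries read 11.9, 9.64, 4.68 and 5.26 CPM and the controls 11.9, 104, 35.0 and 67.5. Control replicate 5 lay level with the highest Cre library, both at 11.9 CPM, and the other 3 controls were higher. Its log2 fold change of -2.55 ± 0.65 had an adjusted p of 0.0882, or 0.0158 without replicate 5. Peripheral axon Cre libraries held 41.1, 16.9, 12.2 and 34.8 CPM and controls 38.9, 53.5 and 221. Control 4 stood highest, and the groups overlapped by a narrow margin, at -1.89 ± 0.67 (unadjusted p = 0.0172, adjusted p = 1.0). Without control 4 this value was -0.87.

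Central axon Cre libraries held 63.9, 152, 36.0 and 80.3 CPM of Ntrk2 and their controls 263, 212, 70.9 and 77.0. The log2 fold change was -0.87 ± 0.59 (adjusted p = 1.0), with overlap between the groups. Astrocytes, a spinal cord glial type known for truncated TrkB, were marked in these libraries: 6 of 6 markers summed to between 266 and 1270 CPM in Cre and between 1120 and 2240 CPM in control libraries. Other spinal cord cells were marked as well. Spinal neuron markers summed to between 128 and 352 CPM in Cre and between 134 and 645 in control libraries. Oligodendrocyte markers summed to between 92.3 and 922 CPM in Cre and between 299 and 3600 in control libraries. The part of these cells in the Ntrk2 level was not tested. In the batch 1 soma Ntrk2 was at 3.94, 23.6, 6.38 and 32.2 CPM in Cre libraries and at 74.9, 0, 0.647 and 26.2 in controls. The fitted value of -1.03 ± 1.83 (adjusted p = 0.795) rested on control 1, without which it was 0.04.

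Ngfr, the p75 gene, was read at 40.7, 50.1, 22.2 and 43.3 CPM in batch 2 Cre somas and at 44.9, 230, 82.5 and 138 in controls. Only control replicate 5 lay within the Cre range, and the log2 fold change was -1.40 ± 0.47 (adjusted p = 0.166, or 0.0288 without that replicate). Markers of non-neuronal cells were lower in the same Cre libraries, without overlap: summed satellite glia markers were at 170 to 334 CPM in Cre and 474 to 2300 in control somas, and Schwann cell markers at 662 to 824 and 1180 to 2920. Fibroblast markers summed to 173 to 364 CPM in Cre and 907 to 3660 in control somas. Their part in the batch 2 soma values of Ngfr, Ntrk2, Ntrk3 and Gfra2 was not tested. Batch 1 gave 64.6, 70.6, 43.8 and 157 CPM in Cre somas against 25.0, 56.1, 136 and 681 in controls. Replicate b, at 681 CPM, lay far above the rest. The fitted log2 fold change of -3.91 ± 1.66 (adjusted p = 0.295) was -1.88 without control 3 and -1.45 with scaling by library size.

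In the peripheral axon Ngfr stood at 26.8, 95.4, 39.0 and 98.1 CPM in Cre libraries and at 23.8, 56.1 and 48.7 in controls, a log2 fold change of 0.65 ± 0.62 (adjusted p = 1.0). The central axon held less, with 50.9, 22.7, 5.43 and 10.3 CPM in Cre libraries and 9.13, 0.768, 0 and 40.3 in controls. These groups overlapped throughout, at 0.91 ± 1.66 (adjusted p = 1.0).

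Ret, the shared signalling kinase, was higher in central axon Cre than in every control: 528, 190, 210 and 119 CPM against 82.8, 105, 0.37 and 102. This was a log2 fold change of 1.96 ± 1.05 with an adjusted p of 1.0. The 528 CPM were in replicate 1, the library high in nociceptor markers, whose part was not tested. Peripherally Ret was at 9.48, 244, 183 and 194 CPM in Cre libraries and at 124, 43.8 and 46.3 in controls. Cre replicate 1 was low, and it was also the lowest of the 4 in summed nociceptor markers, at 1010 CPM against 2030 to 4200 in the others. The fitted value was 1.28 ± 0.85 (adjusted p = 1.0).

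Batch 2 somas held 313, 358, 273 and 452 CPM of Ret in Cre libraries and 296, 225, 263 and 213 in controls. The ranges overlapped only between Cre replicate 7 and control replicate 5, at 0.75 ± 0.26 (adjusted p = 0.182, or 0.0464 without replicate 5). In batch 1 the CPM of all 4 Cre somas, 362, 520, 421 and 748, lay above all 4 controls, at 106, 56.9, 132 and 279. The fit with TMM scaling nevertheless gave -1.11 ± 1.46 (adjusted p = 0.715), which turned to 1.81 with scaling by library size and to 1.60 without control 3. No direction can be given for Ret there.

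The co-receptor of artemin, Gfra3, was at 435, 67.5, 123 and 34.1 CPM in the 4 central axon Cre libraries. The controls held 0 counts in 3 libraries and 38.7 CPM in replicate 4, which lay above the lowest Cre library. The log2 fold change was 4.19 ± 2.02 (adjusted p = 1.0), or 4.18 with DESeq2, and ranged from 2.95 to 13.89 when single libraries were left out. The 13.89 came without control replicate 4. It leaves every control at 0 counts, so its size depends on the prior count. The 435 CPM were again in Cre replicate 1. Peripheral axon Cre libraries held 25.5, 49.2, 55.4 and 39.7 CPM and controls 154, 1.39 and 0. The groups overlapped, at -0.13 ± 1.49 (adjusted p = 1.0). The 154 CPM were in control replicate 1, where nociceptor markers summed to 3350 CPM against 1200 and 446 in the other controls, and without it the value was 5.84 (adjusted p = 0.515).

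In batch 2 somas Gfra3 read 183, 91.5, 128 and 229 CPM in Cre libraries and 161, 35.0, 32.5 and 45.4 in controls. Replicate 5 was again the control within the Cre range. The log2 fold change of 1.42 ± 0.53 (adjusted p = 0.218) was 2.35 without it, with an adjusted p of 0.0107. Batch 1 gave 250, 255, 125 and 105 CPM in Cre somas against 65.9, 171, 5.29 and 0.125 in controls, at 0.78 ± 1.32 (adjusted p = 0.787).

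Gfra2, the neurturin co-receptor, pointed the other way in batch 2 somas, with 24.8, 50.4, 33.2 and 38.4 CPM in Cre libraries and 39.2, 103, 124 and 146 in controls. This gave -1.20 ± 0.42 (adjusted p = 0.185, or 0.0256 without replicate 5). In the axons the groups overlapped: central Cre libraries spanned 37.1 to 108 CPM and controls 71.0 to 122, and peripheral Cre libraries 26.6 to 43.1 CPM and controls 34.1 to 61.0. In batch 1 soma controls Gfra2 ran from 0 to 261 CPM, against 35.7 to 97.4 CPM in Cre libraries.

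Gfra1, the GDNF co-receptor, was the receptor with the smallest batch 2 soma difference, 0.15 ± 0.92 (adjusted p = 0.954). The Cre somas there held 23.7 to 34.6 CPM and the controls 28.9, 42.9, 0 and 46.9. Central axon Cre libraries held 25.8 to 55.7 CPM and controls 0.896 to 64.8, and in the peripheral axon these were 20.7 to 70.3 and 1.57 to 35.9 CPM. An antisense gene, Gm16277, covers 7.6% of the Gfra1 exons, and whether counting used strand is not given in the sources used here.

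The number of Ret reads per Ntrk3 read in the same library does not depend on scaling. In batch 2 somas it was 14.3 to 26.8 in the Cre libraries and 0.845 to 8.08 in controls, the highest of them replicate 5. Batch 1 Cre somas gave 10.3 to 35.6 and their controls 0.198 to 307, where 307 is replicate 3. In the central axon the ratio was 1.25 to 12.7 in Cre libraries and 0.523 to 1.25 in the 3 controls with more than 3 counts of both genes. The peripheral axon gave 0.165 to 8.99 in Cre libraries and 0.468 to 1.75 in controls, and 3 of 4 Cre libraries lay above every control. This ratio restates the Ret and Ntrk3 levels given above and is no separate evidence. A second ratio, Gfra3 reads per Gfra2 read, overlapped between the genotypes among libraries with more than 3 counts of both genes. It was 1.82 to 7.4 in batch 2 Cre somas and 0.263 to 4.11 in their controls. In the peripheral axon it was 0.673 to 2.08 in Cre libraries and 0.0407 to 2.52 in the 2 controls with a value. The peripheral control without a value had 0 Gfra3 and 265 Gfra2 reads. Central axon Cre libraries gave 0.315 to 7.57 and the 1 control with a value 0.485. The remaining central axon controls had 0 Gfra3 reads and 879 to 954 Gfra2 reads.

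**Figure D3:**
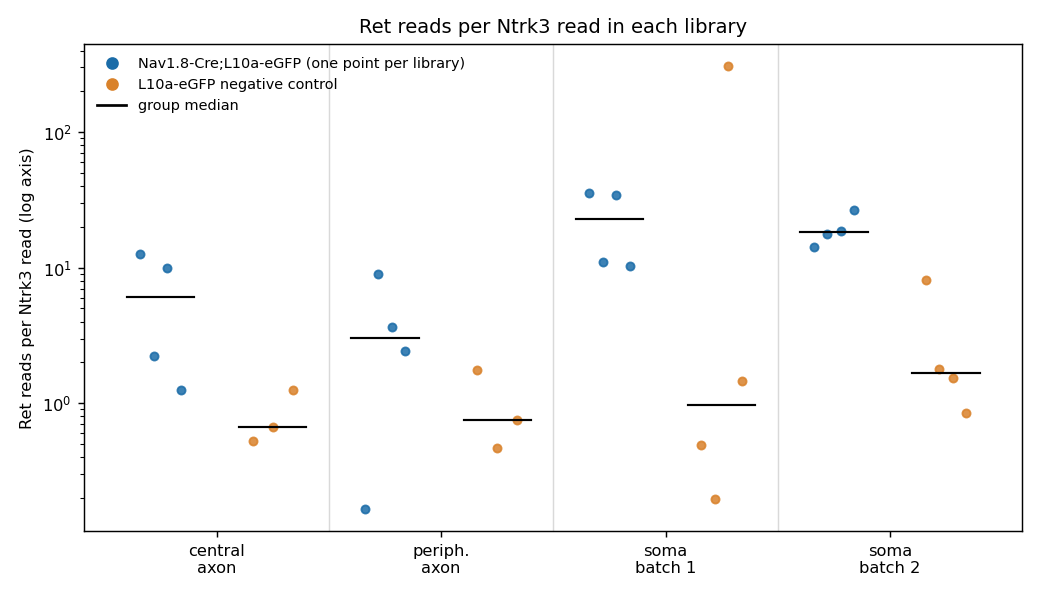
Ret reads per Ntrk3 read in each library on a log axis, by compartment and batch, Cre in blue and controls in orange, with group medians as lines; 1 central axon control with 3 Ret counts is left out. Medians are 18.2 in the batch 2 Cre somas and 1.67 in their controls.

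**Figure D4:**
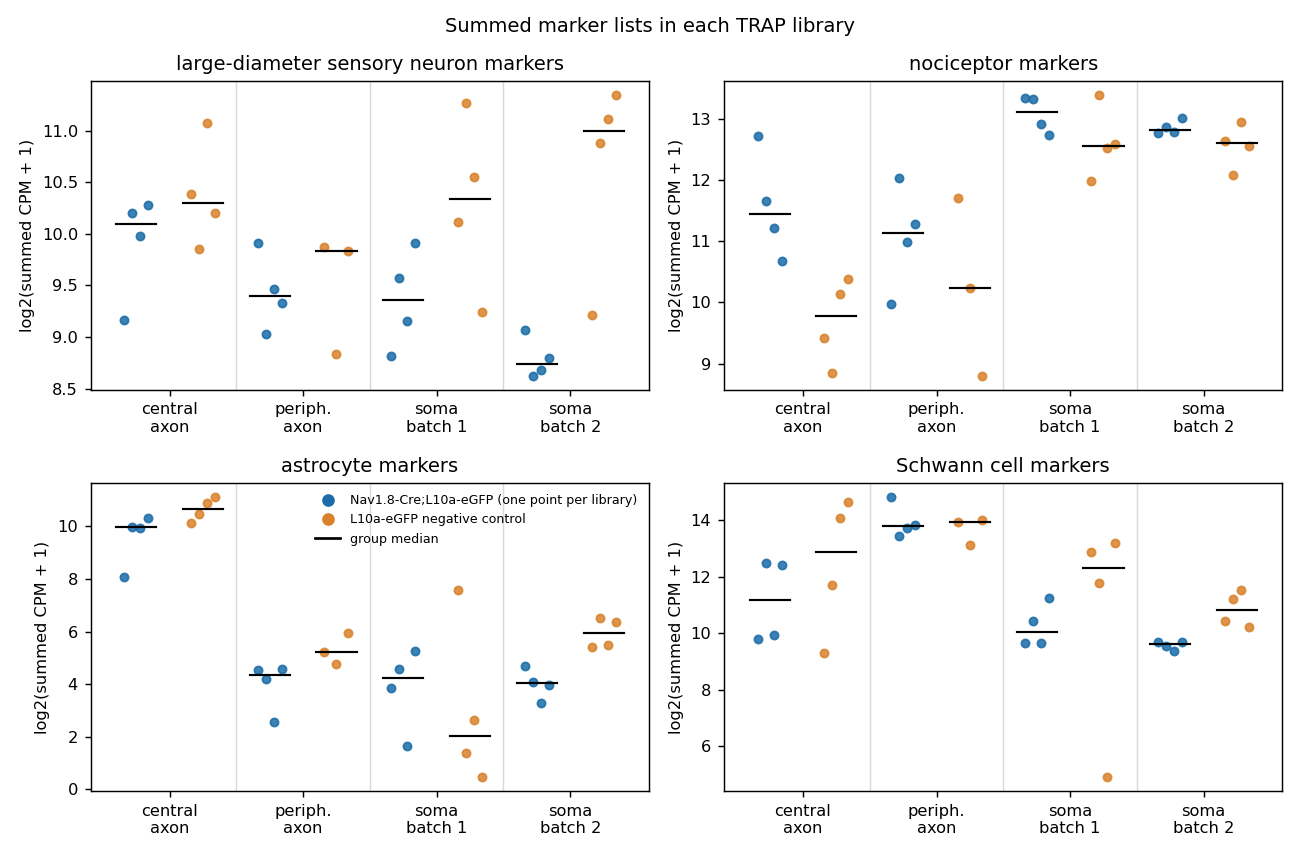
Summed CPM of 4 marker lists in each library, as log2(summed CPM + 1), by compartment and batch, Cre in blue and controls in orange, with group medians as lines; each panel has its own vertical range. Large-diameter neuron markers are higher in 3 of 4 batch 2 soma controls, astrocyte markers are high in central axon libraries of both genotypes, and Schwann cell markers are high in both peripheral axon groups.

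A further question was how receptor transcripts were divided between axon and soma. Among Cre libraries, the central axon against the batch 1 soma gave 2 of 7 receptors past an adjusted p of 0.05, where 13.7% of 14480 genes passed. Of these 1990 genes 1250 were higher in the axon, against 2146 of 2439 with scaling by library size. That scaling moved the median log2 fold change of all genes from 0.05 to 0.50. The peripheral axon against the batch 2 soma gave 3 of 7 receptors, where 31.2% of 15467 genes passed. The receptors' counts are to be read against these backgrounds. In controls 0 receptors passed for the central axon, where 0.0% of 9202 genes passed. There 1 receptor and 12.4% of all genes had an unadjusted p under 0.05. For the peripheral axon of controls 0 passed, with 0.0802% of 13715 genes. Here 2 receptors and 9.78% of all genes had an unadjusted p under 0.05. DESeq2 called 1 receptor in each of these control comparisons, Ngfr and Ret.

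**Figure D5:**
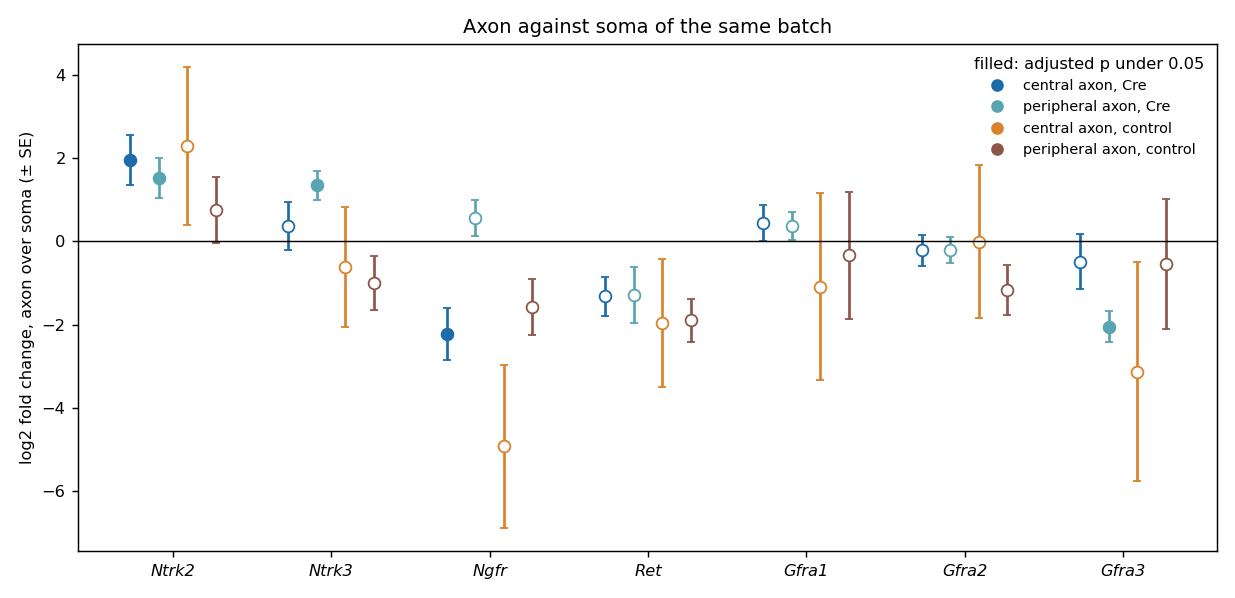
Fitted log2 fold change of each receptor in axon over soma libraries of the same batch (vertical axis, bars are ± SE), for Cre and control mice; filled points have an adjusted p under 0.05. Ntrk2 is higher in both Cre axons at 1.95 and 1.51, Ngfr is lower in the central axon at -2.23, and Gfra3 is lower in the peripheral axon at -2.05.

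Ntrk2 was the receptor that rose in both axons of Cre mice. All 4 central axon libraries, from 36.0 to 152 CPM, lay above all 4 batch 1 somas, from 3.94 to 32.2 CPM, with a log2 fold change of 1.95 ± 0.59 (adjusted p = 0.0453). Peripheral axons, from 12.2 to 41.1 CPM, lay above the batch 2 somas, from 4.68 to 11.9 CPM, at 1.51 ± 0.48 (adjusted p = 0.0326). Controls gave 2.28 ± 1.90 (adjusted p = 0.735) for the central and 0.75 ± 0.79 (adjusted p = 0.852) for the peripheral axon. The axon controls themselves held more Ntrk2 on average than the axon Cre libraries, with overlap. Means were 156 ± 96.9 against 83.0 ± 49.4 CPM centrally and 104 ± 101 against 26.3 ± 13.9 CPM peripherally (SD). The rise is thus not one above the Cre-negative level of the axon tissue. The axon-to-soma difference in Cre less that in control mice was -0.28 ± 1.91 and 0.56 ± 0.97, with adjusted p values of 0.982 and 0.923, and the first changed sign under several settings. Interaction tests of this kind called 0 receptors for the central axon, where 0.0% of 15355 genes passed. Centrally 0 receptors and 20.4% of all genes had an unadjusted p under 0.05. The peripheral interaction called 0, with 0.00636% of 15717 genes passing. Peripherally 2 receptors and 9.74% of all genes had an unadjusted p under 0.05, and DESeq2 called 0 receptors in both interactions.

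Both calls for Ntrk2 lay close to 0.05. Centrally it stayed past 0.05 in 1 of 8 fits that each left out a library, the one without soma replicate 4, with values from 1.49 to 2.43. Peripherally it did so in 2 of 8, those without axon replicate 2 or 3, with values from 1.18 to 1.70. The fit of all groups together gave an adjusted p of 1.0 and 0.209, and with no low-count filter the peripheral value was 1.36 (adjusted p = 0.0657). Astrocyte markers moved with the central axon value: their sum was 266 to 1270 CPM in central axon and 2.16 to 37.4 CPM in soma Cre libraries, and 4 of 6 were called higher. Markers of other cells did so too. Spinal neuron markers summed to 128 to 352 CPM against 1.36 to 6.99, with 7 of 7 called higher. Of the oligodendrocyte markers 3 of 3 tested were called higher. In the list named for satellite glia, which are cells of the ganglion, 3 of 6 were called higher. It summed to 1240 to 3900 CPM in the central axon against 151 to 475 in the ganglia, so its rise cannot be assigned to satellite glia. In the peripheral axon the 10 Schwann cell markers summed to 11000 to 29100 CPM, against 662 to 824 in the batch 2 Cre somas. The part of these cells in Ntrk2 was not tested.

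Ntrk3 rose in the peripheral axon of Cre mice, from 14.6 to 21.9 CPM in somas to 27.2 to 79.8 CPM in axons, with no overlap. At 1.34 ± 0.34 (adjusted p = 0.0119) it passed in 7 of 8 fits that left out a library, the exception being peripheral axon replicate 4 (1.04, adjusted p = 0.0528). It did not pass in the fit of all groups together, at 1.18 (adjusted p = 0.13). Schwann cell markers, at the sums given above, were also higher there, with 9 of 10 called. Summed large-diameter neuron markers were higher on average, at 522 to 960 CPM in axons against 394 to 535 in somas, but their members were split. Of these 7 markers 2 were called higher and 1 lower, with a median log2 fold change of 0.3. Nefh was at 220 ± 67.0 CPM in axons and 235 ± 45.5 in somas. The part of both marked cell types in Ntrk3 was not tested. In control mice the value was -1.0 ± 0.64 (adjusted p = 0.699), with axons at 61.9 to 93.6 CPM and somas at 36.7 to 252 CPM. The difference between the genotypes was 2.16 ± 0.71, with an unadjusted p of 0.00681 and an adjusted p of 0.333. In the central axon the value was 0.37 ± 0.58 (adjusted p = 0.716), with overlap.

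Ngfr fell in the central axon of Cre mice, with 5.43 to 50.9 CPM against 43.8 to 157 CPM in the somas. Central axon replicate 1 overlapped the lowest soma library. The log2 fold change was -2.23 ± 0.63 (adjusted p = 0.0338), which lost its call with scaling by library size (adjusted p = 0.0507), with all groups in one fit (adjusted p = 1.0) and in 6 of 8 fits that left out a library, all but those without axon replicate 1 or soma replicate 3. These 8 values ran from -3.25 to -1.81. Peripherally Ngfr did not pass, at 0.56 ± 0.43 (adjusted p = 0.344), with 26.8 to 98.1 CPM against 22.2 to 50.1. Schwann cells are a known source of p75, and their markers were higher in peripheral axon than soma libraries as given above; their part in Ngfr was not tested. Control mice gave -4.92 ± 1.96 (adjusted p = 0.313) centrally and -1.58 ± 0.67 (adjusted p = 0.459) peripherally. Set against the Cre values, these differences were 2.49 ± 1.91 (adjusted p = 0.511) and 1.98 ± 0.81 (adjusted p = 0.431).

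The central and the peripheral value of Ngfr differed when tested against each other. The log2 axon-to-soma change in the central axon less that in the peripheral axon was -2.64 ± 0.83 (adjusted p = 0.0401). Ngfr was the single receptor called of 7 in that contrast, where 13.1% of 16725 genes passed. Axon type and batch change together here, and each axon was set against the soma of its own batch. In control mice the Ngfr value was also lower centrally, at -4.92 ± 1.96 against -1.58 ± 0.67 peripherally, and neither passed. Whether the contrast in Cre mice differs from that in controls was not tested. The call was lost in 10 of 16 fits that left out a library, with values from -3.54 to -2.19. These left out central axon replicate 2, 3 or 4, batch 1 soma replicate 4, peripheral axon replicate 2 or 4, or any of the batch 2 Cre somas. The other receptors gave 0.58 ± 0.79 for Ntrk2, -0.80 ± 0.74 for Ntrk3, 0.13 ± 0.85 for Ret, 0.21 ± 0.58 for Gfra1, 0.16 ± 0.51 for Gfra2 and 1.69 ± 0.83 for Gfra3. The last had an adjusted p of 0.187.

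Gfra3 fell in the peripheral axon of Cre mice with the smallest adjusted p of the 7. The axons held 25.5 to 55.4 CPM and the somas 91.5 to 229 CPM, without overlap, at -2.05 ± 0.37 (adjusted p = 0.00194). It passed in all 8 fits that left out a library, from -2.27 to -1.85, but not when all groups were fitted together (adjusted p = 0.234). Summed nociceptor markers were also lower there, with 1010 to 4200 CPM in axons and 7000 to 8240 in somas, and 7 of 9 were called lower. Centrally the Gfra3 value was -0.49 ± 0.66 (adjusted p = 0.665), where axons spread from 34.1 to 435 CPM. Replicate 1 held the 435 CPM, and without it the value was -1.89 with an adjusted p of 0.0242. In controls the values were -3.13 ± 2.63 and -0.54 ± 1.56, with adjusted p values of 0.738 and 0.958.

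Ret did not pass in either axon of Cre mice by the test used here. The central value was -1.32 ± 0.47 (adjusted p = 0.0784), with 119 to 528 CPM in axons and 362 to 748 in somas, and without axon replicate 1 it was -2.12 with an adjusted p of 0.00352. Other settings called it too: DESeq2 at -1.30 (adjusted p = 0.038) and no low-count filter at -1.31 (adjusted p = 0.0366). Summed nociceptor markers were lower in the central axon than in the soma, at 1630 to 6720 against 6800 to 10300 CPM, and their part in Ret was not tested. In the peripheral axon all 4 libraries, from 9.48 to 244 CPM, lay below the somas, from 273 to 452 CPM, at -1.29 ± 0.67 (adjusted p = 0.163). Without replicate 1, the library low in nociceptor markers, the value was -0.99 and its adjusted p 0.0135. Controls gave -1.97 ± 1.54 (adjusted p = 0.704) and -1.90 ± 0.52 (adjusted p = 0.222), the peripheral axons again all below the somas.

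Gfra1 and Gfra2 did not pass in either axon of Cre mice. Gfra1 gave 0.43 ± 0.43 centrally and 0.37 ± 0.34 peripherally, with adjusted p values of 0.547 and 0.432. Gfra2 gave -0.22 ± 0.38 and -0.21 ± 0.31, with adjusted p values of 0.744 and 0.642. The Gfra1 libraries spanned 25.8 to 55.7 CPM in central axons and 12.3 to 39.2 in the batch 1 somas.

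Between the Cre somas of the batches 0 receptors passed, where 9.69% of 14899 genes did. At an unadjusted p under 0.05 were 19.3% of all genes and 1 receptor. That receptor was Ngfr, at 84.0 ± 50.0 CPM in batch 1 and 39.1 ± 12 in batch 2 (SD, n = 4 each), a log2 difference of 1.07 ± 0.36 (adjusted p = 0.0968). DESeq2 called 1 receptor, Ngfr. Ntrk2 gave 1.03 ± 0.57 and Ntrk3 0.89 ± 0.50 (adjusted p = 0.377 and 0.391). The batch difference of Ngfr bears on the contrast between the axons, where Ngfr was the receptor called, and its part there was not tested.

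Of the ligands, Bdnf and Ntf3 were read from the somas themselves. Bdnf was at 54.2 ± 9.53 CPM in batch 1 and 39.5 ± 9.68 in batch 2 Cre somas, and Ntf3 at 39.8 ± 13.8 and 23.4 ± 8.56. Axons of Cre mice held 26.3 ± 18.0 CPM of Bdnf centrally and 10.1 ± 13.0 peripherally. Ntf3 fell in the peripheral axon, to 6.7 ± 4.46 CPM, at -1.97 ± 0.64 (adjusted p = 0.0371). Bdnf did not pass there, at -2.06 ± 0.78 (adjusted p = 0.0655). In control mice these changes were -2.92 ± 2.03 for Ntf3 and -3.91 ± 1.68 for Bdnf (adjusted p = 0.739 and 0.466). Nrtn, which encodes neurturin, rose in the peripheral axon, to 11.4 ± 6.92 CPM from 1.16 ± 0.689 in the soma, at 3.05 ± 0.72 (adjusted p = 0.00795). Peripheral axon controls held 8.15 ± 12.1 CPM of Nrtn (n = 3), and the axon-to-soma change in controls was 2.0 ± 2.34 (adjusted p = 0.87). Schwann cell markers were higher in these axon libraries, as given above, and their part in Nrtn was not tested. Central axons held 15.2 ± 11.6 CPM of Nrtn in Cre and 48.2 ± 50.1 in control libraries. Ntf5, Gdnf, Artn and Pspn had group means under 2 CPM in every Cre group. No ligand named here passed between Cre and control libraries in any compartment.

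Other genes of the pathway were taken from lists of 13 co-receptors and 42 signalling genes. Between Cre and control libraries none of them passed in any compartment. In the central axon of Cre mice 1 of 12 tested co-receptors was higher than in the soma and none lower, and of 42 signalling genes 2 were higher and 6 lower, where 13.7% of all genes passed. Dok5, an adaptor of Ret and Trk signalling, was at 59.4 ± 33.1 CPM in axons against 6.0 ± 2.62 in somas (log2 fold change 2.79 ± 0.50). The adaptor gene Sh2b2 gave 2.98 ± 0.59 and Tnfrsf19, of the p75 receptor family, 2.66 ± 0.74. Dok1, Spry2 and Nras were lower, at -1.93, -2.55 and -1.24 on the log2 scale.

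In the peripheral axon 3 of 12 co-receptors were higher and 2 lower, and 4 signalling genes were higher and 10 lower of 42, where 31.2% of all genes passed. Of the sortilin family, Sorcs2 and Sorcs1 rose: Sorcs2 to 26.5 ± 7.51 CPM from 1.61 ± 0.384 (3.85 ± 0.48) and Sorcs1 to 30.3 ± 22.3 from 2.34 ± 1.2 (3.44 ± 0.64). Traf6, a ubiquitin ligase that p75 recruits, gave 3.34 ± 0.54. Gfra4, the persephin co-receptor of Ret, fell to 16.0 ± 6.23 CPM from 60.9 ± 3.87 (-2.12 ± 0.33, adjusted p = 0.000771). The kinase gene Map2k1 and Arhgdia fell by 1.93 and 1.46 on the log2 scale. The medians of the signalling list, -0.13 centrally and -0.40 peripherally, stand beside 0.05 and -0.03 over all genes.

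Between the 2 axons, each against its soma, 3 of 12 co-receptors and 3 of 42 signalling genes were higher centrally and 1 and 4 lower, where 13.1% of all genes passed. Gfra4 gave 2.55 ± 0.50 (adjusted p = 0.0033), Sh2b2 5.68 ± 1.17 and Lingo1, a partner of p75, 2.06 ± 0.53. Spry2 and Nras were lower, at -3.57 ± 0.75 and -1.34 ± 0.38.

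The levels of some receptors followed one another over the 8 groups. Ret and Gfra3 had a Pearson r of 0.95 over the 8 group means of log2(CPM + 1), and Ntrk2 and Ntrk3 one of 0.71, while Ntrk3 and Gfra3 had -0.76. These are descriptions of 8 points that share libraries, batches and depth. Among 13909 genes, those most like Ret were Fam19a4, Ptgir and Fdx1 (r from 0.977 to 0.985), and those most like Gfra3 were Syt9, Plcb3 and Cyb5r1 (0.986 to 0.987). Ntrk2 was most like Ptprd, Kmt2a and Gtf2i (0.968 to 0.975), Ntrk3 like Apc, Tenm2 and Cadm2 (0.926 to 0.953), and Ngfr like Dctn4, Piezo2 and Lgals1 (0.954 to 0.962). For Gfra1 these were Tonsl, Gm16835 and Mtrf1 (0.963 to 0.975), and for Gfra2 Snhg10, Alas1 and Clstn1 (0.956 to 0.964).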

How the data were processed

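Gene counts were made and deposited by the authors as whole-number reads per Ensembl gene. Per the submitters' processing notes, reads were aligned with STAR 2.7.2b to mm10, and per the labels' protocols libraries came from under 1 ng (soma) or 100 pg (axon) of RNA with a SMART-Seq v4 kit. The counting program, strand setting and treatment of reads that fit several genes are not given in the sources used here. All 55536 identifiers matched GENCODE M21. CPM is the count divided by the library total. Fits used edgeR 4.0.16 (R 4.3.3): filterByExpr (minimum count 10, total 15), TMM scaling, quasi-likelihood tests and Benjamini-Hochberg adjustment over all genes tested at 0.05, each on the groups compared. The fitting code was tried on simulated counts for the batch 2 soma comparison of Cre with control and the peripheral interaction only. The simulated spread was set in advance and not matched to the control libraries, so this checks the code and not the calls. SE is the log2 fold change over the root of F. Alternatives were 2 scalings, no filter, DESeq2 1.42.0, leaving out each library, the replicate block and a fit of all groups.

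Named pathway genes were up to 3 a direction by smallest adjusted p among those called with a log2 fold change of 1 or more in size, and some genes that this rule names are not reported here. Like genes needed 10 CPM in a group. The 7 receptors and the gene lists were chosen with earlier results of these data known. Same-numbered libraries were checked for pairing: in no pair of groups did every same-numbered pair correlate over 0.1, so the numbers were not treated as pairs. Between the central axon and batch 1 soma Cre groups the mean was 0.132, against -0.045 for differently numbered libraries. Pairing there is not excluded, and the fit with replicate number as a block is given below. No 2 replicates were alike within sampling noise (the lowest of 45 chi-square values, each divided by its degrees of freedom, was 22.5). Library totals of 3.6 M to 19.64 M counts limit precision, and p-values measure only the spread between these libraries.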

Additional observations from a re-analysis of the deposited data

Results flagged for a closer look

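In 49 groups of 4 library values, 3 had a highest library whose gap to the next, over the group's range, was above 0.829. These were Ngfr in the batch 1 soma controls (replicate b, 681 CPM), Gfra3 in the central axon controls (replicate 4, 38.7 CPM, with the other 3 at 0 counts) and Gfra3 in the batch 2 soma controls (replicate 5, 161 CPM). All 3 are control libraries. Normally distributed values pass this limit, at either end, in about 1 in 20 groups, and 3 of 49 is close to that share. CPM values with 0 counts need not be normal, so the rate is only a guide. The axon-to-soma change of Ngfr differed between the central and the peripheral axon of Cre mice by -2.64 on the log2 scale in the test of the difference itself (edgeR, adjusted p = 0.0401). That call held in 6 of 16 fits that left out a library. Control mice gave -4.92 ± 1.96 centrally and -1.58 ± 0.67 peripherally, and the difference between these was not tested.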

How the results depend on the processing

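Receptor calls moved with the settings as follows. Between Cre and control in the batch 2 soma, where 0 of 7 passed, 1 did (Ntrk3) with scaling by library size, with no filter or with all groups in one fit, 2 with DESeq2, and 0 to 6 when single libraries were left out. For the central axon against soma of Cre mice, 2 became 1 with scaling by library size, 3 with no filter or DESeq2 (Ret being added), 0 with all groups in one fit and 0 to 3 without single libraries. For the peripheral axon, 3 became 2 with no filter (Ntrk2 being lost), 0 with all groups in one fit and 1 to 3 without single libraries. In controls DESeq2 called 1 for each axon, and the fit of all groups 1 for the central one. The difference between the axons kept 0 to 1 call without single libraries. Between the Cre somas DESeq2 called 1, and 0 to 1 passed without single libraries. The causes were not tested.

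Signs turned for values that passed no test. Ret in the batch 1 soma (-1.11) was 1.81 with scaling by library size, 1.07 with no filter, 1.49 with all groups in one fit and -1.35 to 1.60 without single libraries. In the same comparison Ntrk2 ranged from -1.49 to 0.04. In the peripheral axon against soma of controls Ntrk2 ranged from -0.20 to 1.32 and Gfra3 from -6.52 to 0.37. Between Cre and control, Ngfr in the central axon ranged from -0.01 to 2.87. Gfra3 in the peripheral axon was 4.45 with the replicate block and -0.72 to 5.84 without single libraries. Gfra1 in the batch 2 soma was -0.09 with scaling by library size and -0.23 to 0.49 without single libraries. Gfra2 in axon against soma of Cre mice was 0.22 centrally and 0.01 peripherally with scaling by library size, and centrally 0.13 with all groups in one fit and -0.53 to 0.07 without single libraries. Between the axons Ret ranged from -0.56 to 0.45, Gfra1 from -0.05 to 0.50 and Gfra2 from -0.12 to 0.47. The central interaction of Ntrk2 (-0.28) was 0.12 with RLE scaling, 0.11 with DESeq2, 0.04 with the replicate block and -0.99 to 0.40 without single libraries.

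With the replicate number as a block (the replicate block), 3 receptors passed for the central axon against soma of Cre mice, Ret being added at -1.60 (adjusted p = 0.0446), and no other receptor call changed in the comparisons whose groups share numbers. With the block Ntrk2 was at 2.16 (adjusted p = 0.0136) and Ngfr at -2.67 (adjusted p = 0.015) in that comparison. Same-numbered libraries of the central axon and batch 1 soma Cre groups correlated at -0.078 to 0.246. Their mean was 0.132, against -0.045 for differently numbered libraries. The peripheral axon against soma and the contrasts across batches share too few numbers for a block.

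Counts over all genes moved too. DESeq2 called 437, 88, 1593 and 1529 genes between Cre and control in the order of the text, against 2, 0, 516 and 0, and 0 to 5, 0, 0 to 3094 and 0 to 1826 passed without single libraries. The fit of all groups called 1, 1, 2114 and 175. Scaling by library size called 2244 in the batch 1 and 257 in the batch 2 soma, RLE scaling 21 in the latter, and no filter 34, 1700 and 162 in the central axon, batch 1 and batch 2 somas. The replicate block gave 1 in the central axon and 0 in the batch 1 soma. For axon against soma of Cre mice, DESeq2 called 3752 centrally (1990 in the text), and the fit of all groups 15 centrally and 1404 peripherally (4818 in the text). In controls, where 0 and 11 passed, DESeq2 called 806 and 835, the fit of all groups 3855 and 526 and no filter 46 and 268, and scaling by library size 5 centrally. The interactions, with 0 and 1, gave 555 and 443 with DESeq2 and 320 and 23 with no filter. The central one gave 1 with RLE scaling or the replicate block, and the peripheral one 0 with the block. DESeq2 called 3619 between the axons (2187 in the text) and 2296 between the Cre somas (1444), where the fit of all groups called 387. In Cre libraries each receptor had at least 38 counts. In controls, 9 of 105 values were 0 counts.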
